A study of Mus musculus with 18 samples.

Results

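The VEGF and PDGF ligands and receptors were examined as a set of 9 genes, chosen by symbol from the 50600 gene rows of each table: the VEGF ligands Vegfa, Vegfb and Vegfc, the VEGF receptors Kdr and Flt1, the neuropilin co-receptors Nrp1 and Nrp2, and the PDGF ligands Pdgfa and Pdgfb. The cells were neural stem cells (NSCs) cultured from the dentate gyrus of C57Bl6J mice aged 6-9 weeks and used between passages 6 and 15. They were grown adherent with epidermal and basic fibroblast growth factors. The treated cultures received the oxidant H2O2 (hydrogen peroxide) at 500 µM over 24 h, and the controls received the vehicle, which the labels give as water and the study's methods as phosphate-buffered saline. Each treatment was sequenced at RNA inputs of 10 pg, 100 pg and 1 ng, with 3 libraries per treatment and input, 18 in all. The labels give no difference between the groups other than exposure and input, and they name no transgene or deletion. Per the study's methods, the cells came from 1 male and 1 female line, each made from pooled mice, and the replicates were 1 male and 2 female cultures. The column headers name these cultures F5, F8 and M9. Because each RNA sample was diluted to all 3 inputs, the 18 libraries hold 6 RNA samples, and p-values measure the spread between cultures of these lines rather than between animals.

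VEGF ligands are secreted dimers that signal through receptor tyrosine kinases, with neuropilins as co-receptors that also bind class 3 semaphorins. PDGF ligands act in the same way through Pdgfra and Pdgfrb. In the adult hippocampus, Vegfa is made by stem and progenitor cells as well as by astrocytes, and it is known for maintaining the neurogenic niche and its vessels. PDGF-A is a mitogen of oligodendrocyte precursors, and PDGF-B recruits pericytes to vessels.

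The promoters of Pdgfa, Nrp1, Vegfc and Vegfa are shown because the groups of the first 3 did not overlap at 100 pg, and because Vegfa is the textbook hypoxia-inducible ligand of the family. They come from windows of 250 bases just before a RefSeq transcript start, on build GRCm38.p6, written 5′ to 3′ on the strand of the gene. Capitals mark the hypoxia response core (ACGTG or GCGTG), the GC box (GGGCGG), the AP-1 site (TGACTCA or TGAGTCA) and the antioxidant response core (TGACNNNGC), each searched on both strands. The marked sites did not overlap one another. The Pdgfa stretch, at chr5:138995038-138995194 on the minus strand, is the part of its second annotated window that lies outside annotated exons, which fill the rest of the window up to the start. The Nrp1 stretch is at chr8:128358823-128359072 and the Vegfc stretch at chr8:54077282-54077531, both on the plus strand. The Vegfa stretch is at chr17:46032378-46032627 on the minus strand. The Pdgfa and Nrp1 stretches lie in introns of longer annotated transcripts, and the other two lie upstream of the annotated gene.
Pdgfa: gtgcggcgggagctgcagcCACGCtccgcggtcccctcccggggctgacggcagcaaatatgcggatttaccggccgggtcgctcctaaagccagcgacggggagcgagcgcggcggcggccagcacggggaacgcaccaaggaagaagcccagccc
Nrp1: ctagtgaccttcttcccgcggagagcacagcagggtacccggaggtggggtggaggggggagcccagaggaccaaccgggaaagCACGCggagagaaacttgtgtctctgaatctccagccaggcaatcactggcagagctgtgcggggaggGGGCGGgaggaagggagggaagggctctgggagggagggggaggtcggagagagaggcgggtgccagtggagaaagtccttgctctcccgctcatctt
Vegfc: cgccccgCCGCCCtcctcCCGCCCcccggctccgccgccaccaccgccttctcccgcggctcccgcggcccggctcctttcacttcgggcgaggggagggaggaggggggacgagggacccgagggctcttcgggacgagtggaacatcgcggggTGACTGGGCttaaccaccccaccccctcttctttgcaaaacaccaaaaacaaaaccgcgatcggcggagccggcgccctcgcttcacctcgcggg
Vegfa: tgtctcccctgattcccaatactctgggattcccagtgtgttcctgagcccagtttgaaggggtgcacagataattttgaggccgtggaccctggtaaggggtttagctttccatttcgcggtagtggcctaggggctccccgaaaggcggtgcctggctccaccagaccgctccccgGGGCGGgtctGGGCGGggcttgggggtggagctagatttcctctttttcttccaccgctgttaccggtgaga

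Across the 32851 RefSeq promoter windows of the same 250 bases, 38.6% held a hypoxia response core, 32.7% a GC box, 10.2% an antioxidant response core and 4.46% an AP-1 site. The Nrp1 window held 1 hypoxia response core and 1 GC box, and the Vegfc window held 2 GC boxes and 1 antioxidant response core. The Vegfa window held 2 GC boxes and no hypoxia response core, and a second Vegfa window, most of which is exonic, held 2 hypoxia response cores and 1 GC box. The full Pdgfa window held 1 hypoxia response core, shown above, and 2 GC boxes in its exonic part, and the other Pdgfa window, at chr5:138994282-138994531, held 1 antioxidant response core, 1 GC box and no hypoxia response core. None of the windows found for the members had an AP-1 site, and 8 of the 9 genes had a window in the table. These matches describe letters and not bound sites, and sequence outside the 250-base windows was not searched. A window without a core does not show that the gene lacks one.

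Each library held 10032628 to 13051643 reads assigned to genes. Detected genes numbered 13291 to 14002 per library at 10 pg, 18545 to 20919 at 100 pg and 21393 to 27146 at 1 ng. Values are normalized counts. At each input they come from the table that had passed CLEAR, or from the unfiltered (RAW) table where CLEAR lacked the gene. Per the study, CLEAR drops transcripts under an expression threshold. It is set at the level under which reads of most transcripts gather toward the 3′ and 5′ ends. CLEAR kept Vegfa, Vegfb and Nrp1 at every input, and it kept Vegfc, Nrp2 and Pdgfa at 100 pg and 1 ng. Kdr and Flt1 were kept at 1 ng only, and Pdgfb at no input. Of the 9 genes, 9 could be tested at 1 ng, 9 at 100 pg and 6 at 10 pg, where Kdr, Flt1 and Pdgfb had 0 reads in all 6 libraries, which allows up to 3 reads in each. Markers of neural stem and progenitor cells (8 genes including Nes and Sox2) summed to 71518 to 94054 normalized counts in H2O2 and 72274 to 78347 in vehicle at 1 ng. The 8 endothelial markers summed to 34.7 to 47.1 in H2O2 and 21.0 to 46.8 in vehicle, and Sox10 was at 0 in all 6 libraries. Vim, an intermediate filament gene of progenitors, was the marker that rose, with 18457 ± 2411 normalized counts in H2O2 and 11932 ± 1815 in vehicle at 1 ng (SD, n = 3 each, limma adjusted p = 0.0355). With culture as a replicate block, Gfap was higher in H2O2 and Hes5 lower at 1 ng as well (limma, adjusted p = 0.0427 and 0.0324).

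The H2O2 exposure went with a higher level of Pdgfa, the one gene of the 9 that passed the test at 100 pg and at 1 ng. Vegfc and Nrp1 lay on the same side in all 3 cultures at both of these inputs and missed the threshold, although both passed at 1 ng with culture as a replicate block and with DESeq2, while Vegfa, the most abundant VEGF ligand per kb of exon at 1 ng, had no common direction across cultures. Kdr, Flt1 and Pdgfb were near the detection limit.

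**Figure D1:**
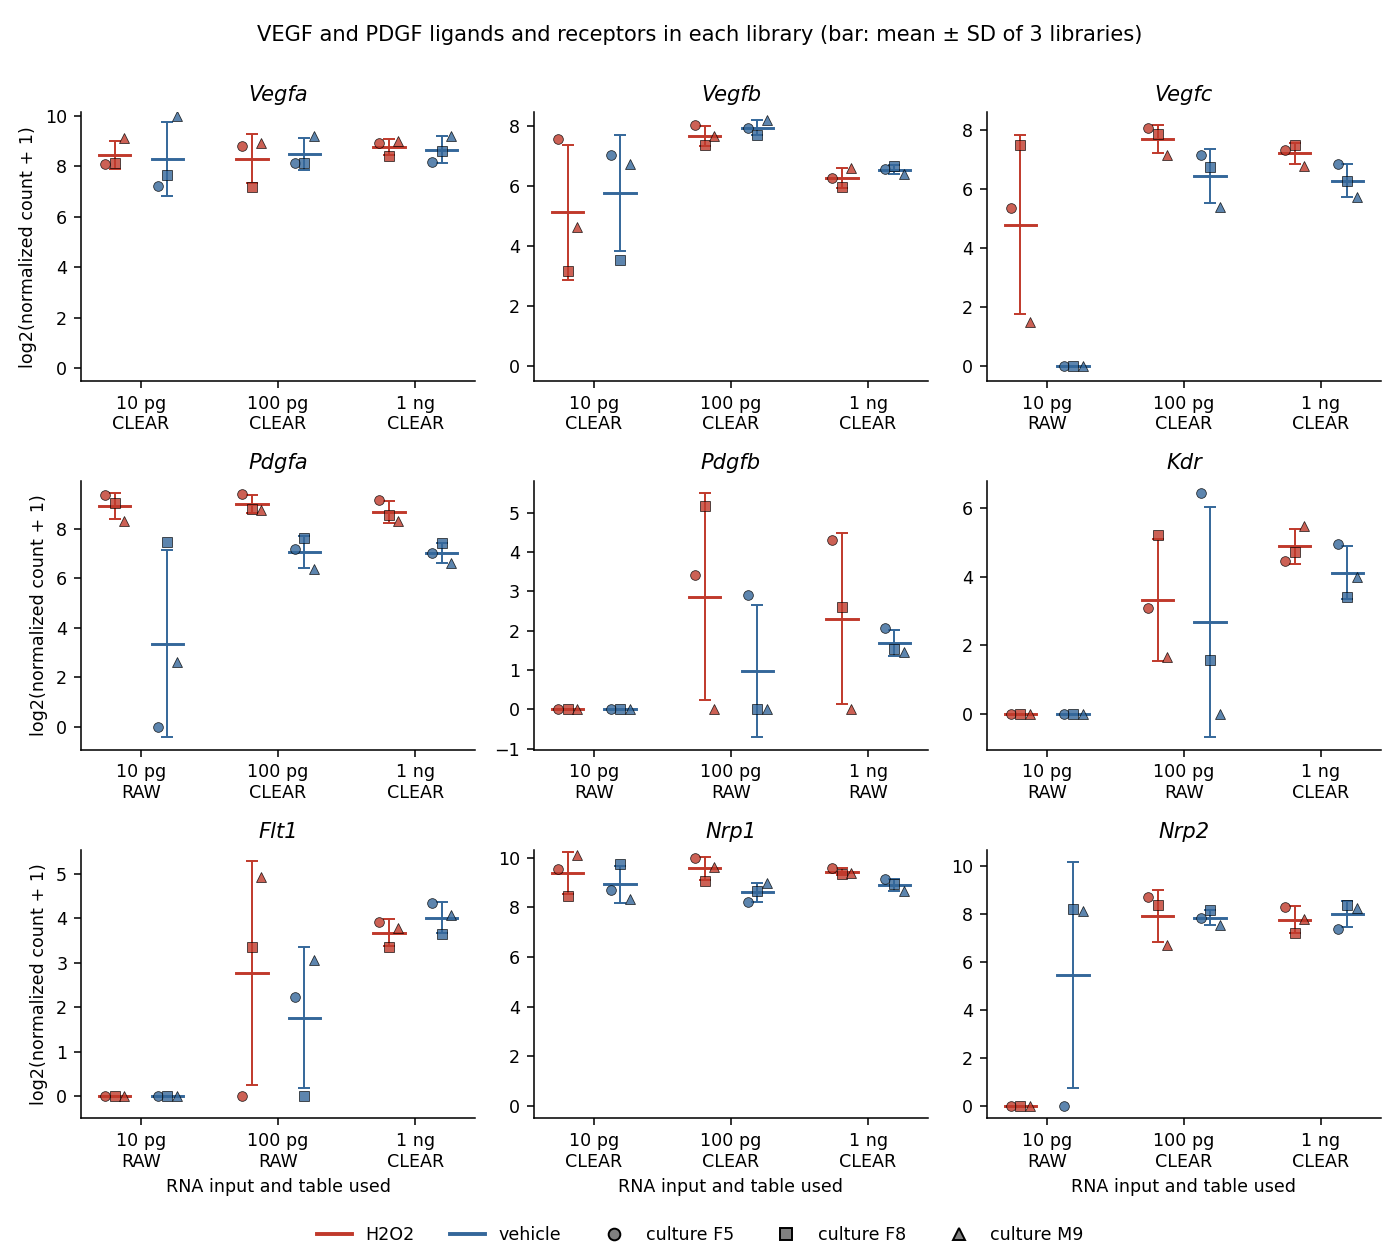
Values of the 9 genes in each library, as log2(normalized count + 1), with H2O2 in red left of vehicle in blue at 10 pg, 100 pg and 1 ng. Symbols are the cultures F5, F8 and M9, lines with bars are the mean ± SD of 3 libraries, and the table used stands under each input. All 3 H2O2 libraries lie above all 3 vehicle libraries for Pdgfa at each input, and Kdr, Flt1 and Pdgfb are at 0 in all 6 libraries at 10 pg.

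Pdgfa encodes the A chain of PDGF, the ligand of Pdgfra (chr5:138976014-138997370, minus strand, GRCm38). At 1 ng it had 574, 373 and 317 normalized counts in H2O2 libraries F5, F8 and M9, against 129.9, 171 and 98.1 in vehicle libraries F5, F8 and M9. The lowest H2O2 library was above the highest vehicle library, and F5 was the highest of the H2O2 libraries. The mean was 422 ± 135 in H2O2 and 133 ± 36.7 in vehicle (SD, n = 3 each), and the log2 fold change was 1.65 with an SE of 0.28 (limma, adjusted p = 0.0221), which is 3.13-fold. Of the 9 genes 1 passed in the upward direction, against 5.57% of the 13692 genes tested in the CLEAR table at this input and 4.65% of the 16572 tested in the RAW table, from which Pdgfb came. In a bulk RNA sample, more cells that express a gene and more RNA of it per cell cannot be told apart.

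At 100 pg Pdgfa had 681, 448 and 437 normalized counts in H2O2 libraries F5, F8 and M9, against 145, 194 and 81.1 in vehicle libraries F5, F8 and M9. The groups again did not overlap, and the log2 fold change was 1.95 with an SE of 0.37 (limma, adjusted p = 0.0483). At this input 0.666% of the 12171 genes tested in the CLEAR table passed in the upward direction, against 1 of the 9 genes here. In the RAW table, from which Kdr, Flt1 and Pdgfb came, 0 of 16774 genes passed. At 10 pg the RAW table gave 653, 522 and 319 in H2O2 libraries F5, F8 and M9, against 0, 177 and 5.11 in vehicle libraries F5, F8 and M9. The vehicle libraries therefore ranged over 0 to 187 reads from RNA that at 1 ng had given 112 to 178 reads. The log2 fold change was 5.54 with an SE of 1.90 (limma, adjusted p = 0.651), and 0% of all genes passed at this input. The order of the vehicle cultures was F8, F5, M9 at 100 pg and 1 ng, and F5 was the highest H2O2 culture at all 3 inputs.

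Pdgfa shares 813 exon bases with 6330403L08Rik, an antisense gene, and reads were counted without regard to strand, so reads in the shared part cannot be assigned to one of them. The antisense gene had 10.5 to 31.9 normalized counts in H2O2 and 3.51 to 12.7 in vehicle at 1 ng. It was thus below Pdgfa in each library, and its log2 fold change was 1.02 with an SE of 0.59 (limma, adjusted p = 0.287). The call of Pdgfa at 1 ng did not pass when any vehicle library was left out, with adjusted p values of 0.0764, 0.0765 and 0.0883 without F5, F8 and M9. No gene of the table passed in those fits, and the log2 fold change stayed between 1.40 and 1.84 over all 6 libraries left out. At 100 pg the call was lost when any 1 of the 6 libraries was left out, with adjusted p values of 0.0533 to 0.139 and log2 fold changes of 1.60 to 2.22, and in the RAW table, with an adjusted p of 0.0822 from limma.

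Pdgfb, the ligand known for pericyte recruitment (chr15:79995874-80014977, minus strand), was scarce. Its reads numbered 19, 5 and 0 in H2O2 libraries F5, F8 and M9, against 3, 2 and 2 in vehicle libraries F5, F8 and M9 at 1 ng. Most of the H2O2 reads were in culture F5, and the groups overlapped. Its log2 fold change was 0.62 with an SE of 1.05 (limma, adjusted p = 0.730), and without H2O2 library F5 it was -0.38. At 100 pg reads numbered 9, 38 and 0 in H2O2 libraries F5, F8 and M9, against 7, 0 and 0 in vehicle libraries F5, F8 and M9 (limma, adjusted p = 0.589).

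Vegfc binds Flt4 and Kdr and is known for lymphatic growth (chr8:54077606-54187096, plus strand). At 1 ng it had 162, 179 and 111 normalized counts in H2O2 libraries F5, F8 and M9, against 115, 77.0 and 52.6 in vehicle libraries F5, F8 and M9. Within each culture the H2O2 library was the higher one, but H2O2 library M9 lay just under vehicle library F5, so the groups overlapped. The log2 fold change was 0.92 with an SE of 0.33 (limma, 95% interval 0.17 to 1.67, adjusted p = 0.0986). With culture as a replicate block, as the culture names in the headers allow, the adjusted p was 0.0389, and with DESeq2 it was 0.0454. At 100 pg Vegfc had 272, 233 and 143 in H2O2 libraries F5, F8 and M9, against 141, 108 and 41.5 in vehicle libraries F5, F8 and M9. These groups did not overlap, though by little, and the log2 fold change was 1.27 with an SE of 0.51 (limma, adjusted p = 0.197). At 10 pg the RAW table gave 40.6, 179.9 and 1.85 in H2O2 libraries F5, F8 and M9, against 0 in all 3 vehicle libraries. Against a floor of 3 reads per library, the H2O2 mean count was at least 27.7-fold higher, of which F8 held the most and M9 only 2 reads. The floor covers counting error only. The same vehicle RNA had given 108, 80 and 60 reads in F5, F8 and M9 at 1 ng, where the fold was 1.89. The fold at 10 pg is therefore no bound on the change in the RNA. The limma adjusted p at 10 pg was 0.696.

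Vegfa, the main angiogenic ligand of Kdr and Flt1 (chr17:46016993-46032369, minus strand), had 481, 342 and 520.5 normalized counts in H2O2 libraries F5, F8 and M9 at 1 ng, against 288, 393 and 594 in vehicle libraries F5, F8 and M9. Culture F5 was higher in H2O2 and the other two were lower, so the groups overlapped throughout. The log2 fold change was 0.12 with an SE of 0.27 (limma, adjusted p = 0.804), with a 95% interval of -0.52 to 0.75. At 100 pg Vegfa had 442, 145 and 492 in H2O2 libraries F5, F8 and M9, against 279, 281 and 594 in vehicle libraries F5, F8 and M9. The split was the same one, with F5 alone higher in H2O2. At 10 pg it had 274, 282 and 552 in H2O2 libraries F5, F8 and M9, against 148, 204 and 1010.2 in vehicle libraries F5, F8 and M9. Culture M9 was thus the highest within each treatment at every input, and the direction of the fold change turned when single libraries were left out.

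Vegfb, a ligand of Flt1 but not of Kdr (chr19:6982473-6987651, minus strand), had 75.4, 61.0 and 95.9 normalized counts in H2O2 libraries F5, F8 and M9 at 1 ng, against 94.8, 101 and 83.2 in vehicle libraries F5, F8 and M9. The groups overlapped because of culture M9, which was the higher of its pair in H2O2. Vegfb had a log2 fold change of -0.28 with an SE of 0.24 at 1 ng and -0.26 at 100 pg (limma, adjusted p = 0.467 and 0.681). At 100 pg it had 259, 163 and 204 in H2O2 libraries F5, F8 and M9, against 245, 206 and 291 in vehicle libraries F5, F8 and M9. Culture F5 was then the one that was higher in H2O2. At 10 pg the libraries spread over 8.03 to 191 in H2O2 and 10.7 to 129.5 in vehicle. Both F8 libraries were the low ones at that input and both F5 libraries the high ones.

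**Figure D2:**
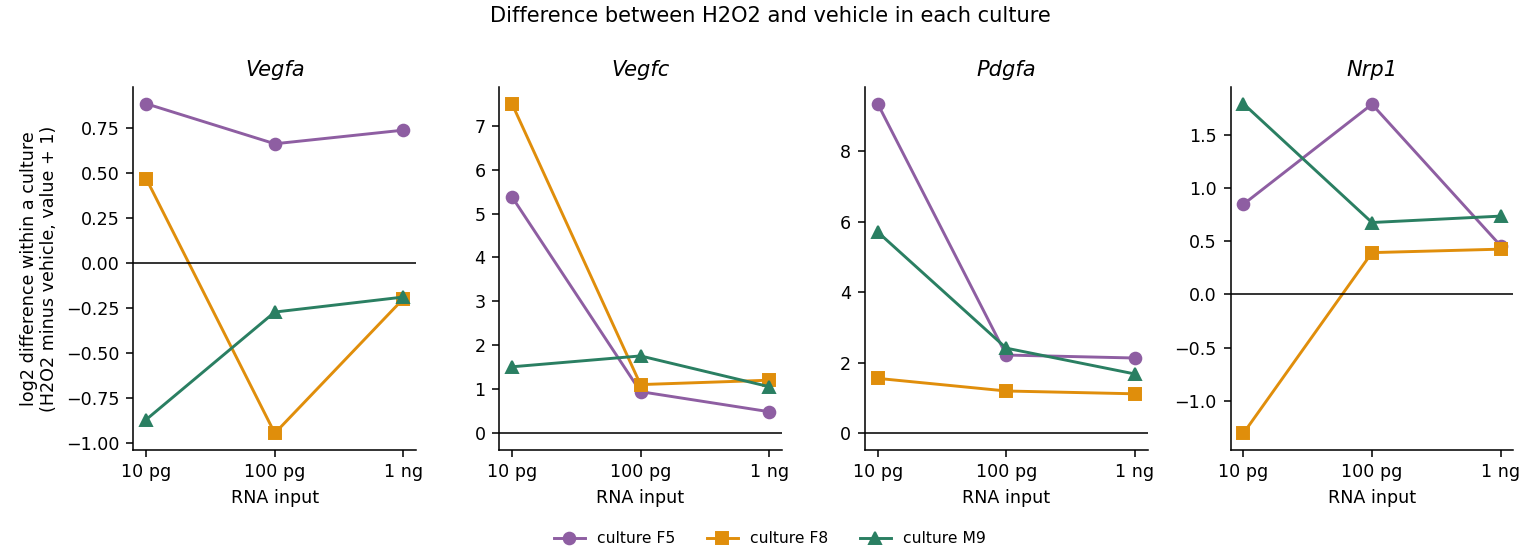
Log2 difference between the H2O2 and vehicle library of the same culture (value + 1, vertical axes scaled per gene) at 10 pg, 100 pg and 1 ng for Vegfa, Vegfc, Pdgfa and Nrp1. For Vegfa, culture F5 lies above 0 and culture M9 below 0 at each input, while for Pdgfa all 9 differences are above 0, and for Vegfc those at 10 pg are against vehicle values of 0.

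Nrp1, the co-receptor of Vegfa and of semaphorin 3A (chr8:128358604-128503363, plus strand), had 769, 654 and 663 normalized counts in H2O2 libraries F5, F8 and M9 at 1 ng, against 559, 487 and 398 in vehicle libraries F5, F8 and M9. Each H2O2 library was above each vehicle library. The log2 fold change was 0.54 with an SE of 0.15, or 1.45-fold, and the adjusted p of 0.0510 from limma missed the threshold of 0.05. It was 0.0277 with culture as a replicate block, 0.0190 with DESeq2 and 0.0497 with TMM scaling, and over all alternatives it ran from 0.0190 to 0.145. At 100 pg Nrp1 had 1016, 536 and 797 in H2O2 libraries F5, F8 and M9, against 294, 408 and 499 in vehicle libraries F5, F8 and M9. The groups again did not overlap, and the log2 fold change was 0.95 with an SE of 0.29 (limma, adjusted p = 0.115, and 0.0240 with DESeq2). At 10 pg it had 746, 350.5 and 1112 in H2O2 libraries F5, F8 and M9, against 414, 868 and 320.3 in vehicle libraries F5, F8 and M9. Culture F8 lay the other way at that input, and the groups overlapped.

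Nrp2, the co-receptor of Vegfc and of semaphorin 3F (chr1:62703285-62818695, plus strand), had 312, 144 and 218 normalized counts in H2O2 libraries F5, F8 and M9 at 1 ng, against 165, 328 and 298 in vehicle libraries F5, F8 and M9. F5 was higher in H2O2 and the other cultures were lower, as for Vegfa. Its log2 fold change was -0.24 with an SE of 0.34 at 1 ng and 0.08 with an SE of 0.50 at 100 pg (limma, adjusted p = 0.671 and 0.948). At 10 pg the RAW table held 0 reads in all 3 H2O2 libraries and in vehicle library F5, against 314 and 323 reads in vehicle libraries F8 and M9. With a floor of 3 reads per library, the H2O2 mean count was at least 63.9-fold lower than the vehicle mean, and the limma adjusted p was 0.714. At 100 pg the H2O2 RNA of the same cultures had given 388, 358 and 94 reads. The fold at 10 pg is therefore no bound on the change in the RNA.

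The kinase receptors of VEGF were scarce. Kdr, the main signalling receptor (chr5:75932827-75978458, minus strand), had 21, 25 and 41 reads in H2O2 libraries F5, F8 and M9 at 1 ng, against 28, 10 and 17 in vehicle libraries F5, F8 and M9. Cultures F8 and M9 were higher in H2O2 and F5 was lower, and the log2 fold change was 0.77 with an SE of 0.47 (limma, adjusted p = 0.306). At 100 pg Kdr reads numbered 7, 39 and 2 in H2O2 libraries F5, F8 and M9, against 92, 2 and 0 in vehicle libraries F5, F8 and M9, so 1 library of each group held most of the reads (limma, adjusted p = 0.887). Flt1, which binds Vegfa tightly and signals weakly (chr5:147561604-147726011, minus strand), had 14, 9 and 12 reads in H2O2 libraries F5, F8 and M9 at 1 ng, against 18, 12 and 18 in vehicle libraries F5, F8 and M9. Each culture was slightly lower in H2O2, and the log2 fold change was -0.34 with an SE of 0.35 (limma, adjusted p = 0.550). At 100 pg Flt1 reads numbered 0, 10 and 27 in H2O2 libraries F5, F8 and M9, against 4, 0 and 8 in vehicle libraries F5, F8 and M9 (limma, adjusted p = 0.783).

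The receptor of PDGF-A was also scarce. Pdgfra, also a marker of oligodendrocyte precursors, had 30.9, 23.5 and 10.5 normalized counts in H2O2 libraries F5, F8 and M9 at 1 ng, against 74.3, 26.6 and 64.0 in vehicle libraries F5, F8 and M9. Each culture was lower in H2O2, the groups overlapped, and the log2 fold change was -1.30 with an SE of 0.51 (limma, adjusted p = 0.134). Pdgfrb, the receptor of PDGF-B on pericytes, had 5, 0 and 2 reads in H2O2 libraries F5, F8 and M9, against 1, 4 and 9 in vehicle libraries F5, F8 and M9, and Flt4, the main receptor of Vegfc, had 3, 1 and 3 reads in those H2O2 libraries, against 1, 0 and 7 in those vehicle libraries. Both were under the filter on low values at 1 ng and were not tested there. At 100 pg Pdgfra had an adjusted p of 0.797 from limma, and Flt4, with 39 reads in vehicle library F8 and at most 1 in each other library, had one of 0.730. At 10 pg Pdgfra and Pdgfrb had 0 reads in all 6 libraries.

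Per kilobase of exon, the order of the levels at 1 ng differed between the treatments. In H2O2, Pdgfa had 135 ± 43.4 normalized counts per kb and Vegfa 104 ± 21.9, and their ranges overlapped. Vegfc with 61.5 ± 14.5 and Vegfb with 48.3 ± 10.9 followed, below Vegfa in each library and overlapping each other, and Pdgfb came last with 1.93 ± 2.36 (SD, n = 3). In vehicle, Vegfa led with 99.1 ± 36.3 per kb, above the range of Vegfb with 57.9 ± 5.63. Pdgfa with 42.7 ± 11.8 and Vegfc with 33.3 ± 12.9 overlapped each other, and Pdgfb had 0.548 ± 0.189. Among receptors, Nrp1 had 71.0 ± 6.52 per kb in H2O2 and 49.2 ± 8.27 in vehicle, above the range of Nrp2, which had 19.0 ± 7.09 in H2O2 and 22.3 ± 7.32 in vehicle. Kdr had 3.31 ± 1.30 per kb in H2O2 and 2.01 ± 1.16 in vehicle, and Flt1 had 0.886 ± 0.188 in H2O2 and 1.15 ± 0.283 in vehicle. The Kdr and Flt1 ranges overlapped in vehicle only. Both neuropilins were thus above both kinase receptors in each 1 ng library. The order of the VEGF ligands was not the same at 100 pg, where Vegfb had 130.0 ± 30.2 per kb in H2O2 and 154 ± 26.5 in vehicle, and Vegfa had 84.0 ± 43.7 in H2O2 and 89.8 ± 42.3 in vehicle. Each input was normalized apart, so only the order within an input can be read.

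**Figure D3:**
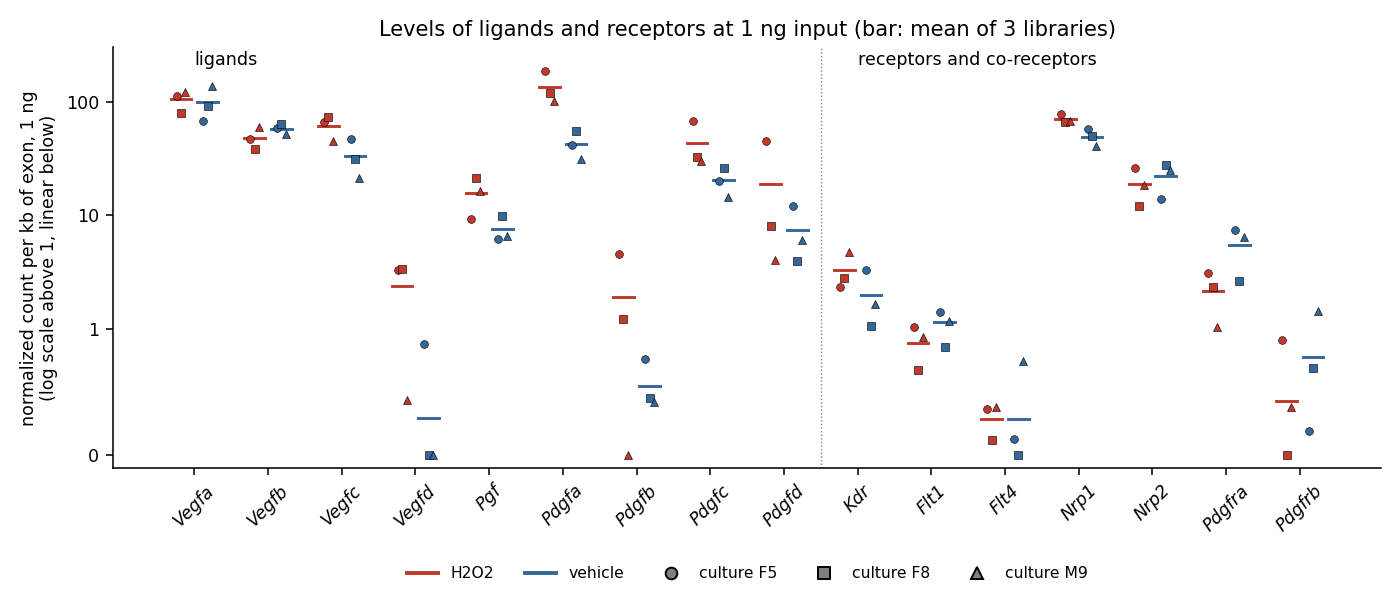
Normalized counts per kb of exon at 1 ng for VEGF and PDGF ligands (left of the dotted line) and receptors (right), on an axis that is logarithmic above 1 and linear below, with H2O2 in red left of vehicle in blue. Symbols are the 3 cultures and lines the means. Vegfa, Pdgfa and Nrp1 are in the upper range, with 135 per kb for Pdgfa in H2O2 and 42.7 in vehicle, while Kdr, Flt1, Flt4 and both PDGF receptors are low.

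Of the 9 genes, 2 had H2O2 libraries all above the vehicle libraries at 1 ng (Pdgfa and Nrp1), against 18.1% of genes in the CLEAR table in that direction. At 100 pg 3 did (Pdgfa, Nrp1 and Vegfc), against 12.6% of genes, and at 10 pg Pdgfa did, against 6.2% of genes in the RAW table. Vegfc is not counted at 10 pg, where its vehicle libraries had 0 reads and any H2O2 read would set the groups apart. The 6.2% does include such genes, and by its rule 2 members, Pdgfa and Vegfc, are counted. None of the 9 genes had vehicle libraries all above the H2O2 libraries at any input, where 19.7% of genes did so at 1 ng, 14.1% at 100 pg and 7.01% at 10 pg in the RAW table. The median log2 fold change of the tested members was 0.54 at 1 ng, 0.95 at 100 pg and 0.30 at 10 pg, beside 0.02, 0.01 and 0.02 over all genes of the CLEAR tables. Over the genes tested in the RAW tables, from which some members came, it was 0.015, 0.020 and -0.0058. Placing Vegfc and Nrp2 at their folds against the floor of 3 reads leaves the median of the members at 10 pg as it is. Inputs were normalized separately and share their RNA, so the same direction at several inputs is not a replicate of the exposure.

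**Figure D4:**
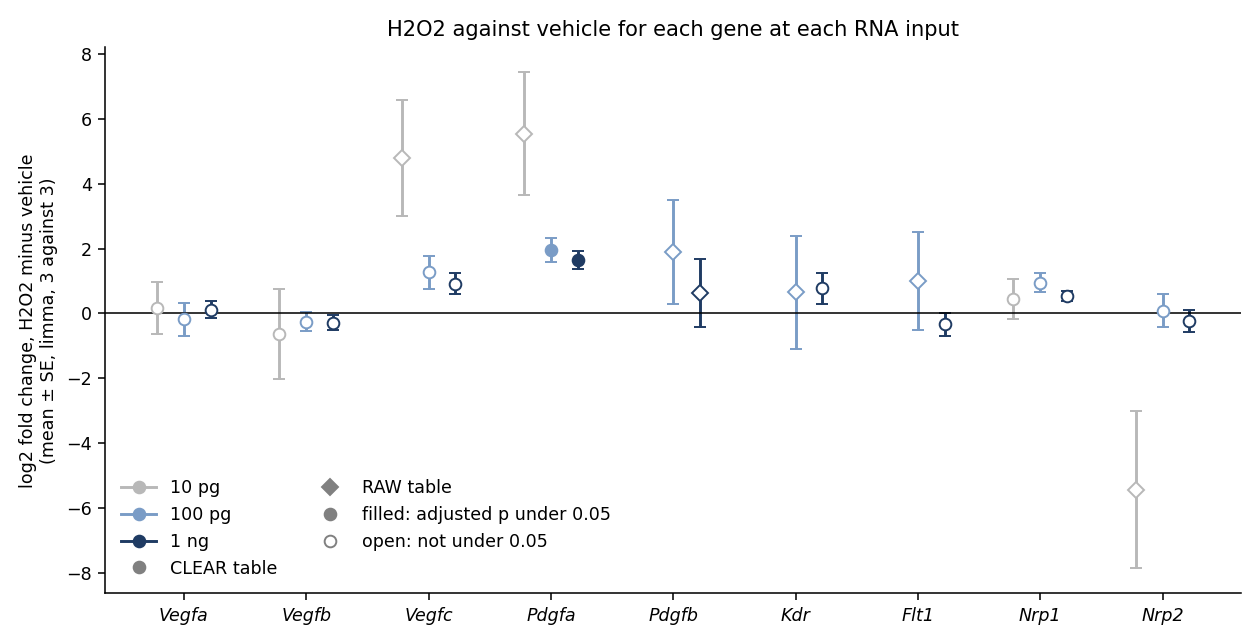
Log2 fold change of each gene, H2O2 minus vehicle, with its SE from limma at 10 pg, 100 pg and 1 ng. Filled symbols passed an adjusted p of 0.05, circles come from the CLEAR table and diamonds from the RAW table. Pdgfa at 100 pg (1.95) and at 1 ng (1.65) are the filled ones, and the bars at 10 pg are wider than those at 1 ng.

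Genes around the pathway were counted by the same test. Of the other VEGF and PDGF ligands and receptors, 5 of 8 were tested at 1 ng and 0 passed, with a median log2 fold change of 0.96. Pdgfc, a PDGF ligand of Pdgfra, came nearest at 1 ng, named after its values were seen, with 346, 166 and 153 normalized counts in H2O2 libraries F5, F8 and M9, against 102, 134 and 73.6 in vehicle libraries F5, F8 and M9 (limma, adjusted p = 0.0913). Of the semaphorins and plexins that share the neuropilins, 10 of 12 were tested at 1 ng, 0 passed, and their median log2 fold change was 0.30. Of the oxygen sensing genes and HIF subunits, 8 of 9 were tested and 0 passed, with a median of 0.09 and with Hif1a at 3239 normalized counts in H2O2 and 2963 in vehicle. Epas1, a HIF subunit named after its values were seen, had 1104, 601 and 893 in H2O2 libraries F5, F8 and M9 at 1 ng. Vehicle libraries F5, F8 and M9 had 536, 503 and 658, and the groups overlapped. At 100 pg Epas1 had 698, 481 and 601 in H2O2, against 386, 350 and 383 in vehicle, without overlap. There 1 other of the 8 tested genes of this list had its H2O2 libraries all below the vehicle libraries. Over all genes of the CLEAR table at 100 pg, 12.6% lay higher in H2O2 without overlap and 14.1% lower. At that input 0 genes of this list passed with limma.

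Of the HIF target genes other than Vegfa, 12 of 13 were tested and 1 rose at 1 ng. This was Ddit4, an inhibitor of mTORC1 that is also induced by other stresses, with 156 ± 17.9 normalized counts in H2O2 and 93.0 ± 12.3 in vehicle (SD, n = 3 each, limma adjusted p = 0.0483, and 0.0544 with the replicate block). The median of this list was 0.32 at 1 ng. Of the signal mediators below the receptors, 13 of 14 were tested and 1 rose, Grb2, an adaptor that links receptor kinases to Ras, with 492 ± 49.2 in H2O2 and 353 ± 27.5 in vehicle (SD, n = 3 each, limma adjusted p = 0.0494, and 0.0607 with the replicate block). The median of the mediators was 0.23. None fell in any of these lists, and none passed in them at 100 pg or 10 pg. The share over all genes at 1 ng was 5.57% upward and 7.11% downward. With culture as a replicate block, the genes of these lists past the threshold at 1 ng were instead Pdgfrl, Sema3a, Sema3e, Adm, P4ha1, Nck2 and Shc1, which were higher in H2O2, and Ptpn11, which was lower, and at 100 pg they were Nck2 and Shc1. In that fit 8.44% of genes of the CLEAR table passed upward and 9.87% downward at 1 ng, and 1.77% upward at 100 pg, while Sema3e came from the RAW table, where 7.66% passed upward at 1 ng. With DESeq2, the genes past the threshold upward at 1 ng numbered 1, 2, 1, 3 and 2 in these lists, in the order given. At 100 pg they numbered 0, 1, 1, 0 and 1, and 0 passed downward at either input. Over the CLEAR tables DESeq2 called 1311 of 13692 genes upward at 1 ng and 524 of 12171 at 100 pg. Among markers of other cell types, microglial ones summed to 152 to 167 normalized counts in H2O2 and 115 to 129.6 in vehicle at 1 ng, of which Csf1r was the most, and 0 of the 2 tested passed. Csf1r itself had 131 to 141 in H2O2 and 91.4 to 108 in vehicle, without overlap (limma, adjusted p = 0.1005). In the RAW table, from which Csf1r came, 2905 of 16572 genes lay higher in H2O2 without overlap at 1 ng. At 100 pg the Csf1r groups overlapped, with 109 to 165 in H2O2 and 117 to 156 in vehicle. P2ry12, the other microglial marker tested, overlapped at 1 ng. Pericyte markers summed to 1054 to 1903 in H2O2 and 1594 to 1980 in vehicle, nearly all Cspg4. Of the other pericyte markers, Kcnj8 had 0 reads in all 6 libraries at 1 ng. Abcc9, Anpep and Pdgfrb had at most 2, 5 and 9 reads in a library, and Rgs5 had 1 to 37. The sum is thus a level of Cspg4 rather than of the list. What part cells of other types had in the values of the VEGF and PDGF genes was not tested.

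**Figure D5:**
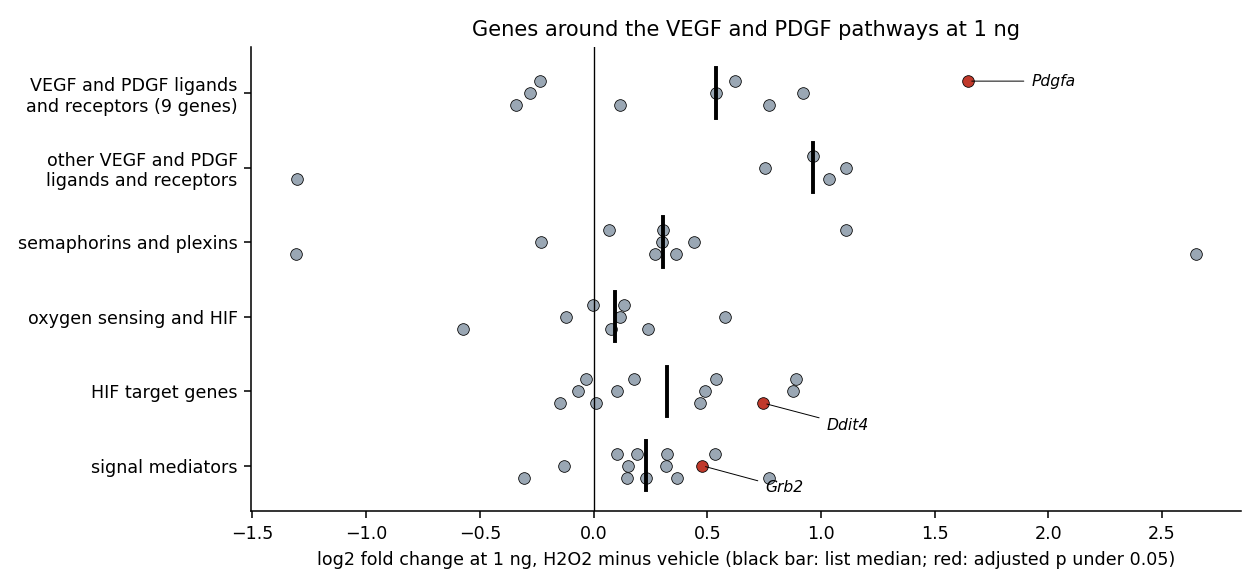
Log2 fold change at 1 ng, H2O2 minus vehicle, for each tested gene of the 9 members and of 5 lists around them, 1 point per gene. Black bars are list medians, and red points passed an adjusted p of 0.05 (limma). Pdgfa (1.65), Ddit4 (0.75) and Grb2 (0.48) are the red points.

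The genes whose levels ran most alike with the 3 members present in every CLEAR table were ranked by Pearson r of log2 values centred on each input, over 18 libraries from 6 RNA samples and 6330 genes. They were 9430041J12Rik (r = 0.905), Ldha (0.868) and Vdac1 (0.850) for Vegfa. For Vegfb they were Gm16599 (0.947), Sec14l1 (0.923) and Deaf1 (0.901), and for Nrp1 they were Atp5o (0.895), Capns1 (0.875) and Lgals8 (0.869). Libraries of the same RNA are not independent, and these values are descriptions without a test. 9430041J12Rik, Gm16599, Atp5o, Capns1 and Lgals8 share exon bases with a neighbouring gene on the other strand, so their counts may hold reads of that gene.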

How the data were processed

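The authors trimmed and filtered the reads, aligned them with HISAT2 2.0.6 to mouse build GRCm38 and counted them per gene with featureCounts without regard to strand, per the study's methods. The submitters' processing notes name GRCh38, a human build, although the symbols are mouse ones. What the authors deposited is a signal, normalized counts, made by dividing gene counts by a size factor per library within each table. All values came out as whole reads within 1e-08. Columns were mapped to groups by their headers and not to numbered samples. limma 3.58.1 in R 4.3.3 was fitted on log2(value + 1) of whole tables (RAW: mean of at least 5), 3 H2O2 against 3 vehicle libraries per input, with Benjamini-Hochberg adjustment over the table. The authors used DESeq2 on counts. Here DESeq2 1.42.0 and edgeR 4.0.16 on recovered reads, a replicate block by culture, other pseudocounts and TMM were alternatives. Further ones were the RAW tables, no filter on low values and leaving out each library. Pairing of the 2 treatments comes from the culture named in the headers. Deviations of paired libraries from their group means correlated at 0.101 to 0.341 at 1 ng, 0.0262 to 0.170 at 100 pg and -0.0293 to 0.0341 at 10 pg. The unmatched pair of H2O2 library F5 and vehicle library F8 gave 0.0962 at 1 ng and 0.0526 at 100 pg. H2O2 library F8 and vehicle library F5 gave 0.0366 and 0.00396. At these inputs the values thus set M9 apart more than they set F5 apart from F8. Exon lengths and positions came from GENCODE on GRCm38. Named genes are all 9 members, Flt4, Pdgfra, Pdgfrb, genes of the lists that passed, and the 3 nearest genes per member. Pdgfc and Epas1 were added after their values were seen. The members and lists were chosen with earlier results of these data known. The 95% intervals are limma's, from the spread between libraries, while floors of 3 reads cover counting error only.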

Additional observations from a re-analysis of the deposited data

Results flagged for a closer look

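Vegfa lay in opposite directions in cultures F5 and M9 at all 3 inputs. The log2 difference between the H2O2 and vehicle library of culture F5 was 0.89 at 10 pg, 0.66 at 100 pg and 0.74 at 1 ng. In culture M9 it was -0.87 at 10 pg, -0.27 at 100 pg and -0.19 at 1 ng. The difference between the cultures was not tested, because each culture has 1 RNA sample per treatment and the inputs are dilutions of that RNA.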

How the results depend on the processing

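Of 336 alternative values for the log2 fold changes of the 9 genes, 299 kept their direction and their side of the threshold, 6 passed in addition, 11 were no longer past it and 20 turned direction. The cause was not tested. Some of the 336 could not differ from the main values, so 299 overstates how many stayed when free to move. Leaving off the filter on low values reuses the main fit of genes in the CLEAR tables. The RAW tables repeat the main fit of genes taken from them, and the block leaves each log2 fold change as it is. At 1 ng the number of the 9 genes past the threshold was 1, and it was 2 with TMM (Nrp1 and Pdgfa), 3 with DESeq2 and 3 with the replicate block (Vegfc, Nrp1 and Pdgfa in both). Leaving out single libraries gave 0 to 1. At 100 pg the number was 1, and it was 0 with a pseudocount of 5 (Pdgfa log2 1.91, limma adjusted p = 0.0513), 0 in the RAW table for every gene (log2 1.95, adjusted p = 0.0822), 2 with DESeq2 (Nrp1 and Pdgfa) and 0 with any 1 library left out (0 to 0). At 10 pg it was 0 in each alternative. Calls over all genes moved with the method as well. Of 13692 genes in the CLEAR table at 1 ng, 762 passed upward with limma, 770 with TMM, 1311 with DESeq2 and 1155 with the block. Of 12171 at 100 pg, 81 passed upward with limma and 524 with DESeq2. The values that passed in addition at 1 ng were 0.89 (DESeq2) and 0.92 (replicate block) for Vegfc, and 0.54 (TMM), 0.53 (DESeq2) and 0.54 (replicate block) for Nrp1, and at 100 pg 0.97 (DESeq2) for Nrp1. The block changed no other call of the 9 genes.

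Values that turned direction were those of Kdr at 100 pg, -0.93 with DESeq2 and -0.91 with edgeR, and of Vegfa at 10 pg, -0.30 with either tool. Without single libraries, log2 fold changes ran over -0.13 to 0.39 at 1 ng, -0.50 to 0.37 at 100 pg and -0.38 to 1.01 at 10 pg for Vegfa. For Nrp2 they ran over -0.54 to 0.045 at 1 ng and -0.31 to 0.70 at 100 pg. Pdgfb ran over -0.38 to 1.78 at 1 ng, Kdr over -0.68 to 2.54 and Flt1 over -0.084 to 2.38 at 100 pg, and Vegfb over -1.86 to 0.34 at 10 pg. Pdgfa ran over 1.40 to 1.84 at 1 ng and 1.60 to 2.22 at 100 pg.

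Over all genes of the CLEAR table, limma called 1735 at 1 ng, DESeq2 2766 and the replicate block 2506, and leaving out single libraries gave 0 to 1667. At 100 pg the counts were 184, 1134 and 495, and 0 to 292. At 10 pg limma and edgeR called 0 of 6356 genes, with 646 at an unadjusted p under 0.05, and DESeq2 called 91. In the RAW tables limma called 1695 at 1 ng (DESeq2 2938, block 2687), 0 at 100 pg (3066 at an unadjusted p under 0.05, DESeq2 1432, edgeR 0) and 0 at 10 pg (1077 at an unadjusted p under 0.05, DESeq2 356, edgeR 0). Kdr, Flt1, Pdgfb, Pdgfra and Pdgfrb had 0 reads in all 6 libraries at 10 pg, although library totals there overlapped those at 1 ng. With 3 against 3 an exact permutation test of a single gene cannot go below p = 0.1.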
